A study of Rattus norvegicus with 12 samples.

Results

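Gene expression in the rat lumbar spinal cord 7 days after spinal cord injury (SCI) was compared with that 3 days after it, to describe which early changes recede and which grow. The comparison takes 6 of the 12 libraries of the series, the 3 labelled SCI at day 7 and the 3 labelled SCI at day 3, chosen by their labels alone. RNA had been sequenced from whole tissue of lumbar segments L3 to L5, in groups of 3 libraries: sham at day 0, and SCI at days 3, 7 and 14. The sham libraries are used here as the starting level of each gene. The day 14 libraries enter the filter, the scaling and the estimate of the spread, and their levels are given for Lclat1 only. The labels give no strain, age or sex, no level or kind of injury, and no sham group for the later days. Whether each library is a separate animal is not stated, so the p-values speak of the spread between libraries, and this spread may be technical in part. In whole tissue, fewer cells of a type and less RNA per cell cannot be told apart.

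After an injury to the spinal cord, cells first switch on immediate early genes, which encode transcription factors and feedback phosphatases and are normally active only briefly after a stimulus. Blood vessels and invading leukocytes respond early, and astrocytes and microglia leave their resting state. Resting astrocytes clear glutamate, buffer potassium and water and exchange metabolites with neurons through connexin channels. As they become reactive, they enlarge their intermediate filament skeleton, of which Gfap is the best known part. Microglia lose surface receptors of the resting state and take up debris. Myelin and its repair depend on the synthesis of cholesterol, which the cord makes locally.

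Library totals ran from 64585462 to 65153240 counts in sham, from 74175555 to 79072710 at day 3 and from 70040479 to 74592821 at day 7. SCI day 3 replicate 2 stood apart from the other libraries of its day. On the first principal component, which took 38.3% of the variance, it lay at -7.04, against 122 and 135 for replicates 1 and 3, from -43.8 to 15.8 at day 7 and from -87.6 to -39.2 in sham. Mitochondrially encoded genes took 5.62%, 10.2% and 5.43% of the counts in day 3 replicates 1, 2 and 3 and 9.19% to 10.8% at day 7. The median over genes of the SD of log2 CPM (counts scaled to a common library size with TMM factors) between replicates was 0.475 at day 3, 0.284 at day 7 and 0.234 in sham. The motor neuron enzyme Chat, a marker of the labelled tissue, measured 39.98, 38.2 and 43.6 CPM in sham, 1.99, 28.8 and 1.37 at day 3 and 55.9, 22.04 and 38.7 at day 7. Day 3 replicates 1 and 3 were far below every other library of these groups. For many of the results that day 3 replicate 2 moved, the value without that library is given beside them. Where no such value is given, that library may still have mattered. It was singled out for differences seen in these data, so calls made without it are partly built in. Leaving out day 3 replicate 1 or replicate 3 instead gave 0 calls between the days (edgeR).

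No gene passed the test of day 7 against day 3. Of 18714 genes tested, 0 (0%) had an adjusted p under 0.05 (edgeR's quasi-likelihood test with Benjamini-Hochberg adjustment), and the lowest adjusted p, that of Fosb in edgeR, was 0.106. At an unadjusted p under 0.05 there were 2773 genes, 1775 lower at day 7 (9.48%) and 998 higher (5.33%). DESeq2 called 230 genes, 115 in each direction, among them the 12 lower and 12 higher genes with the smallest p in edgeR that did not overlap and had at least 5 CPM on the higher day, and limma voom with sample weights called 1, Fosb. Without SCI day 3 replicate 2, edgeR called 3605 of 19084 genes, 2176 of them higher at day 7 (11.4%) and 1429 lower (7.49%). Leaving out SCI day 14 replicate 1 gave 2 calls, Fosb and Lclat1, and leaving out any other library gave 0. Levels are therefore described library by library. A gene is called separated where all 3 day 7 libraries lay on the same side of all 3 day 3 libraries, and 3 against 3 cannot give an exact two-sided permutation p under 0.1 for one gene.

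Separation was more often toward the sham level than away from it. In all 2577 genes were separated, 1439 of them lower at day 7 (7.69% of the genes tested) and 1138 higher (6.08%). Of the separated genes, 1383 (53.7%) lay above or below all sham libraries at day 3 and came toward them at day 7. Within these, 609 (3.25% of all genes) were above sham at day 3 and overlapped it at day 7, and 589 (3.15%) were below sham at day 3 and overlapped it at day 7. A further 115 (0.615%) came down but stayed above sham, and 70 (0.374%) came up but stayed below. Another 319 (12.4% of the separated genes) moved away from sham. Most of these overlapped sham at day 3 and lay above it (148, 0.791%) or below it (152, 0.812%) only at day 7. An early difference that was larger at day 7 was found for 9 genes in the upward direction (0.0481%) and 10 in the downward direction (0.0534%). In 21 genes the libraries were on one side of sham at day 3 and on the other at day 7, 14 of them above sham first (0.0748%) and 7 below it first (0.0374%). The remaining 854 (4.56%) overlapped sham on both days, and 16137 (86.2%) of the genes tested were not separated. If the libraries of both days were interchangeable, a share of 0.1 of the genes would still be separated, counting both directions. The number of separated genes should be read against that level, and many of them may not reflect a change. The day 3 libraries enter both parts of such an order, so these counts describe the libraries and test nothing. Without SCI day 3 replicate 2 the counts were 4558 lower and 4569 higher.

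**Figure D1:**
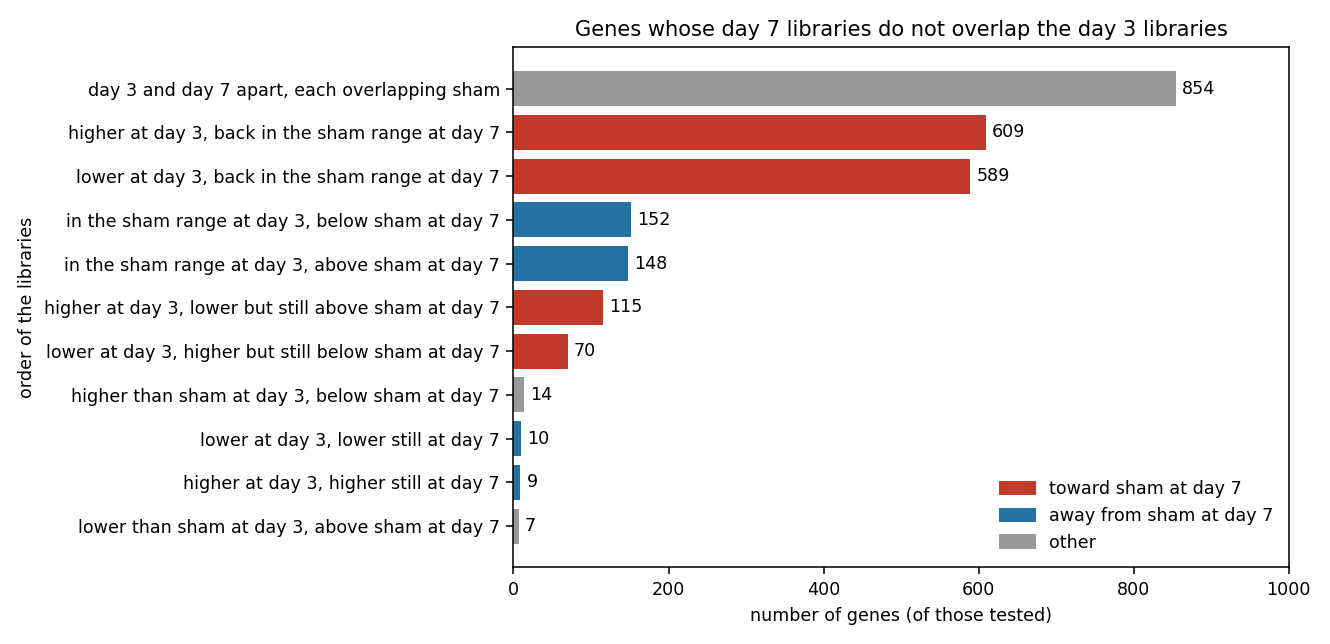
Number of genes (x axis) for each order of the libraries (y axis) among the genes whose 3 day 7 libraries did not overlap the 3 day 3 libraries; bar colours give the direction relative to sham. Orders toward sham held 609, 589, 115 and 70 genes, orders away from it 152, 148, 10 and 9.

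Of the genes called at day 3, more receded than persisted and 0 grew. Against sham, 1030 genes rose by day 3 (5.5%) and 224 fell (1.2%; edgeR adjusted p under 0.05), a number that depended on single libraries: it was 7087 in all without SCI day 3 replicate 2 and 1 without sham replicate 3. A called change is said to recede where the day 7 difference from sham was under 0.5 times that of day 3, and to grow where it was over 1.5 times. By this measure 532 of the 1030 rises (51.65%) receded, 498 persisted and 0 grew. Of the 224 falls 175 (78.12%) receded, 49 persisted and 0 grew. The median log2 fold change from sham was 1.12 at day 3 and 0.40 at day 7 in the receding rises, and 1.79 and 1.21 in the persisting ones. In the receding falls it was -1.38 and -0.38. These genes were picked for their difference at day 3, so a smaller difference at day 7 is partly built into the count. The same day 3 and sham libraries enter the orders counted above, so these numbers are no independent support for them. At day 7 itself 3 genes differed from sham (0.016%; edgeR): Tmem158, Ccdc71l and Cebpb, a transcription factor of the inflammatory response. They are 3 of the rises that persisted: Cebpb measured 0.356, 0.553 and 0.687 CPM in sham, 58.6, 23.3 and 74.5 at day 3 and 12.5, 25.9 and 37.1 at day 7.

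Immediate early genes were lower at day 7 as a group. All 27 members tested had a lower mean at day 7, 12 of them (44.4%, against 7.69% of all genes) with no overlap between the days, and 0 were separated upward. The median log2 fold change of day 7 over day 3 was -1.60, against -0.0377 over all genes tested. At day 3, 21 of the 27 had risen against sham (edgeR), against 5.5% of all genes. Fosb (ENSRNOG00000046667, chromosome 1), a subunit of the AP-1 transcription factor, measured 0.923, 2.505 and 1.61 CPM in sham, 24.5, 30.1 and 27.6 at day 3 and 2.04, 2.697 and 2.83 at day 7. The 3 day 3 libraries were close together and the day 7 libraries were near the upper sham value, a log2 fold change of -3.44 ± 0.41 (SE) between the days. Its adjusted p was 0.106 in edgeR, 0.0114 in limma voom and 0.0219 in edgeR with the replicate number as a block. Dusp5 (ENSRNOG00000014061, chromosome 1), a phosphatase that switches off ERK kinases in the nucleus, measured 1.77, 1.89 and 1.91 CPM in sham, 15.8, 7.197 and 19.1 at day 3 and 2.14, 3.398 and 2.95 at day 7. It stayed above every sham library at day 7 (log2 fold change between the days -2.31 ± 0.36). The zinc finger factor Egr3 measured 2.09, 2.52 and 2.91 CPM in sham, 9.36, 7.48 and 7.28 at day 3 and 2.96, 1.57 and 2.67 at day 7, and its relative Egr1 26.3, 37.6 and 28 CPM in sham, 90.4, 93.3 and 198 at day 3 and 24.5, 40.3 and 39.9 at day 7. Both overlapped sham again at day 7. The other factors that did so were Klf2, Klf4, Nr4a2, Fosl1, Ier2 and Btg2, with log2 fold changes of -1.78, -1.63, -2.20, -0.97, -1.31 and -0.94.

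The members of this list differed in how much lower they were. Fos, the best known AP-1 subunit, measured 18.1, 18.4 and 16.9 CPM in sham, 111, 100.1 and 121 at day 3 and 22.6, 51.7 and 89.01 at day 7. Its day 7 libraries spread widely and all lay above sham, and its log2 fold change of -1.02 ± 0.41 was smaller than that of Fosb. In all, 15 members overlapped between the days. Among them were Jun, Atf3, Fosl2, Zfp36 and Ccn2, with log2 fold changes from -0.38 for Jun to -1.07 for Atf3. Overlap did not mark only the small falls: others of the 15 were lower by more, as the list median of -1.60 requires. Arc, which neurons make after synaptic activity, was the 1 separated member that overlapped sham at day 3 and lay below it at day 7. In SCI day 3 replicates 1, 2 and 3 the mean log2 level of the list relative to sham was 2.49, 1.64 and 2.85, and at day 7 it was 0.27, 0.77 and 1.46. Without SCI day 3 replicate 2, 15 of the 27 fell (edgeR), against 7.49% of all genes, and the median was -1.79. It was -1.05 without SCI day 3 replicate 3 and -0.78 without SCI day 7 replicates 1 and 2. Egr2 is also a Schwann cell gene, and Schwann cell markers varied in the same libraries, as given with the matrix genes.

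**Figure D2:**
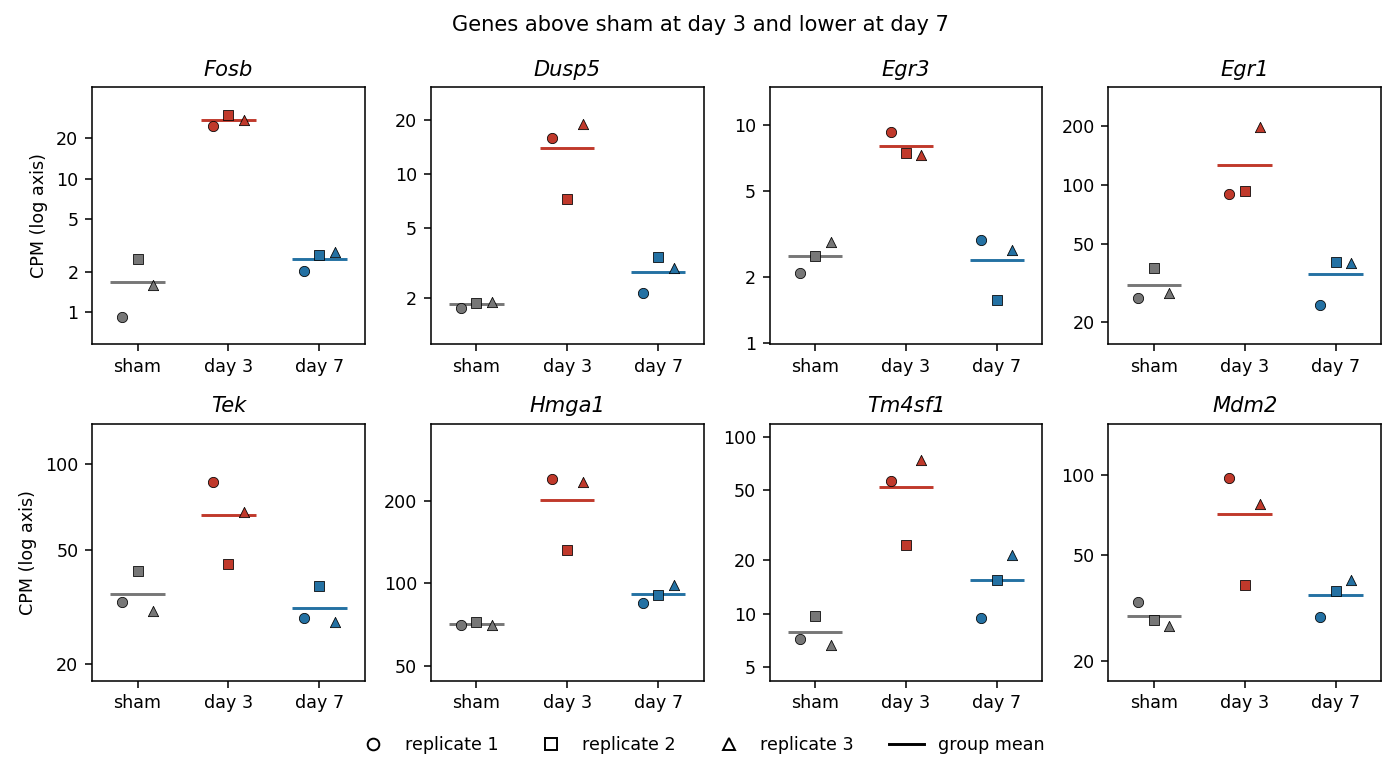
CPM (log axis) of 8 genes in the sham, day 3 and day 7 libraries; symbols mark replicates and lines the group means. In 7 of the 8 genes all day 7 libraries lay below all day 3 libraries, and in Mdm2 day 3 replicate 2 (38.8 CPM) lay below day 7 replicate 3 (40.3 CPM).

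The promoters of these genes were searched for the letters bound by factors that answer to growth signals. RefSeq promoter windows of build GRCr8, from 250 bases before to 50 after the start, were found for 18 of the 27 genes. The CArG box, the site of serum response factor, was present on either strand in 5 of the 18 (27.8%), against 1.64% of 27457 promoters. The cyclic AMP response element letters TGACGT were present in 7 (38.9%), against 8.22%. Among them, Dusp5 is printed because it had the smallest p after Fosb among the genes named as lower at day 7 and 2 adjacent CArG boxes, starting 82 and 72 bases before the start (in capitals; chr1:262543524-262543823, plus strand, GRCr8).
Dusp5: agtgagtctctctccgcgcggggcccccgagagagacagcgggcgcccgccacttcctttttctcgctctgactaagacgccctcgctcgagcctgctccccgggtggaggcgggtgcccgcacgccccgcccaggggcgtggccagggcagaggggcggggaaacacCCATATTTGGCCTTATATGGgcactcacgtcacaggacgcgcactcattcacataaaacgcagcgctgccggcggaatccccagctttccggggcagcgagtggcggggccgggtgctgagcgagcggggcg
Fosb had no CArG box in this window. A match is a description of the letters and does not show that a factor was bound.

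Most endothelial markers had a lower mean at day 7 than at day 3, but few were separated. Among 21 endothelial markers 19 had a lower mean at day 7 (median -0.93), but only Tek was separated downward (4.76% of the list, against 7.69% of all genes), and Vcam1 upward (4.76%, against 6.08%). At day 3, 9 of the 21 had risen (edgeR), against 5.5% of all genes. Tek, the angiopoietin receptor of endothelial cells, measured 32.9, 42.4 and 30.6 CPM in sham, 86.4, 44.7 and 67.99 at day 3 and 28.9, 37.5 and 28 at day 7. Icam2, an endothelial adhesion molecule outside the list, measured 4.84, 4.18 and 4.87 CPM in sham, 13.8, 8.66 and 12.8 at day 3 and 4.73, 5.58 and 5.76 at day 7. Both overlapped sham at day 7, and the log2 fold changes between the days were -1.08 ± 0.23 and -1.13 ± 0.22. Egfl7, a secreted protein of endothelial cells, measured 63.8, 20.6 and 62.8 CPM at day 3 and 18.9, 13.4 and 25.5 at day 7. Its day 3 replicate 2 lay within the day 7 range. This was the order of most of the list: its mean log2 level relative to sham was 2.08, 0.74 and 1.95 in day 3 replicates 1, 2 and 3 and 0.44, 0.80 and 1.20 at day 7. With day 3 replicate 2 left out, 10 of the 21 fell (edgeR), against 7.49% of all genes, among them Pecam1, Tek, Egfl7, Tie1, Eng and Esam, and the median was -1.23. Mfsd2a, the lipid transporter of the blood-brain barrier, had a higher mean at day 7, with 27.8, 41.8 and 30.4 CPM at day 3 and 70.3, 59.1 and 38.7 at day 7, and overlapped between the days.

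Among 14 pericyte and smooth muscle markers, Notch3 and Kcnj8 were separated downward (14.3%, against 7.69% of all genes) and Mylk upward (7.14%, against 6.08%). The median was -0.28. Notch3, a receptor that maintains mural cells, measured 37.97, 40.4 and 35.8 CPM in sham, 82.8, 51.9 and 61.6 at day 3 and 41.7, 38.5 and 34.1 at day 7 and was back among the sham libraries at day 7. Kitlg, the ligand of the Kit receptor, measured 33.2, 44.5 and 25.9 CPM in sham, 89.5, 58.9 and 85.5 at day 3 and 25.6, 36.7 and 24.6 at day 7. A pair of further endothelial genes was picked after their values were seen. Mmrn2, of the vessel matrix, had 56.8, 33.2 and 58.3 CPM at day 3 and 19.5, 19.3 and 25.8 at day 7, and the transcription factor Sox17 had 42.4, 17.4 and 32.5 and 11.8, 10.5 and 10.3. Of the growth factors of repair 0 of 24 were separated, with a median of -0.51. Pdgfb, which recruits pericytes, measured 50.8, 21.9 and 63.6 CPM at day 3 and 17.3, 15.3 and 27.2 at day 7, and Hbegf, a ligand of the EGF receptor, 159.6, 58.01 and 307 CPM at day 3 and 15.6, 21.5 and 85.7 at day 7.

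Other genes that stood above sham at day 3 and lower at day 7 came from several roles. Hmga1, a chromatin protein of growing cells, measured 70.3, 72.3 and 70.4 CPM in sham, 239, 132 and 234 at day 3 and 84.3, 90.4 and 98.5 at day 7, so that every day 7 library remained above sham. The zinc exporter Slc30a1 measured 21.9, 25.2 and 19.8 CPM in sham, 40.3, 36.98 and 59.2 at day 3 and 26.02, 23.8 and 25.5 at day 7, and the Hippo pathway kinase activator Mob1b 15.6, 17.4 and 14.6 CPM in sham, 31.5, 21.4 and 32.6 at day 3 and 14.7, 13.6 and 16.1 at day 7. The keratin Krt8 measured 1.65, 3.304 and 1.91 CPM in sham, 6.13, 5.68 and 13.8 at day 3 and 1.53, 2.102 and 1.54 at day 7. Slc30a1, Mob1b and Krt8 overlapped sham at day 7. Genes chosen after their values were seen add Mall, a membrane raft protein, with 2.997, 3.29 and 2.23 CPM in sham, 32.9, 16.96 and 59.4 at day 3 and 8.85, 8.22 and 13.5 at day 7, and the small GTPase Gem with 8.16, 7.64 and 7.78 CPM in sham, 26.2, 18.6 and 44.1 at day 3 and 9.197, 11.3 and 12.3 at day 7. Cyp1a1, the target enzyme of the aryl hydrocarbon receptor, had 0 counts in every sham library, 2.65, 3.03 and 10.9 CPM at day 3 and 0.483, 0.304 and 1.27 at day 7. Hilpda, a lipid droplet protein, measured 3.17, 2.83 and 3.62 CPM in sham, 13.7, 5.29 and 14.6 at day 3 and 3.502, 3.77 and 4.56 at day 7.

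Among p53 targets and apoptosis genes 16 of 19 had a lower mean at day 7 (median -0.60). Btg2 and Bbc3 were separated downward (10.5%, against 7.69% of all genes). Bbc3, the BH3-only death protein also called Puma, measured 2.66, 3.64 and 3.53 CPM in sham, 10.1, 7.22 and 6.23 at day 3 and 5.45, 4.19 and 4.38 at day 7. Mdm2, which marks p53 for degradation, measured 33.3, 28.5 and 27.01 CPM in sham, 97.6, 38.8 and 77.6 at day 3 and 29.4, 36.8 and 40.3 at day 7. Its day 3 replicate 2 lay among the day 7 libraries, and without that library its log2 fold change was -1.30 (edgeR adjusted p = 0.002903). Without it 6 of the 19 fell (edgeR), against 7.49% of all genes. Stress genes had a median of -0.39 over 22 members with 1 separated, Herpud1, which was lower. Atf4, the integrated stress factor, measured 279, 192 and 329 CPM at day 3 and 130.4, 117 and 217 at day 7, and Trib3, a pseudokinase that Atf4 induces, 13.9, 0.647 and 5.35 CPM at day 3 and 0.538, 1.04 and 0.904 at day 7.

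Cytokine feedback genes and cytokines were lower at day 7 in the mean, but their libraries overlapped. All 15 brakes of cytokine and NF-kB signalling had a lower mean at day 7 (median -0.60), and 0 were separated. Socs3, which blocks signalling from IL-6 family receptors, measured 3.21, 5.44 and 3.23 CPM in sham, 192, 95.97 and 359 at day 3 and 15.6, 61.9 and 197 at day 7. The day 7 libraries ran from below the day 3 range to inside it, and all stayed above sham. Nfkbia, the inhibitor of NF-kB, measured 94.3, 48.5 and 119 CPM at day 3 and 26.4, 23.7 and 52.3 at day 7. Its day 3 replicate 2 was below day 7 replicate 3. Of 17 cytokines 15 had a lower mean (median -0.85) and 0 were separated. Il11, an IL-6 family cytokine, had 0 counts in every sham library and measured 13.6, 0.117 and 34.8 CPM at day 3 and 0, 0.846 and 0.932 at day 7. The alarmin Il33 measured 329.8, 222 and 817 CPM at day 3 and 72.6, 83.6 and 318 at day 7. Cntf, a trophic factor that Schwann cells and astrocytes make, measured 118, 125 and 486 CPM at day 3 and 43.6, 35.4 and 142 at day 7.

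Of 18 chemokines only Cxcl12 was separated (5.56%, against 7.69% of all genes). The median was -0.84 between the days, -1.185 without SCI day 3 replicate 2 and 0.45 without SCI day 3 replicate 3. Cxcl12, made by vessel and meningeal cells, measured 69.2, 65.9 and 65.2 CPM in sham, 111, 88.2 and 89.4 at day 3 and 70.8, 72.8 and 75.7 at day 7. Ccl2, which attracts monocytes, measured 0.259, 0.753 and 0.219 CPM in sham, 21.8, 4.18 and 75.8 at day 3 and 0.855, 20.3 and 19.3 at day 7. Its libraries differed more within each day than between the days, and the log2 fold change of -1.33 ± 1.09 went to 0.05 without SCI day 3 replicate 3. The neutrophil attractant Cxcl3 was near 0 in 2 of the day 3 libraries and higher in replicate 3, with 0.0488, 0.0518 and 8.45 CPM. Without replicate 3 the log2 fold change turned from -4.14 to 1.64, a value that rests on day 3 levels near 0.

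Most reactive astrocyte genes had a lower mean at day 7, and most overlapped between the days. Of 29 members 16 had risen by day 3 (edgeR), against 5.5% of all genes. At day 7, 25 had a lower mean than at day 3 and the median was -0.77, yet 24 of the 29 were not separated. Tm4sf1, a tetraspanin-like membrane protein, measured 7.19, 9.71 and 6.66 CPM in sham, 56.3, 24.6 and 74.5 at day 3 and 9.45, 15.4 and 21.6 at day 7, and S100a10, a partner of annexin A2, 21.2, 68.5 and 25.7 CPM in sham, 162, 107 and 189 at day 3 and 46.1, 76.5 and 79.8 at day 7. Nes, an intermediate filament of immature astrocytes, measured 767, 357 and 892 CPM at day 3 and 114, 188 and 306 at day 7, and Fbln5, an elastic fibre protein, 62.8, 45.95 and 116 CPM at day 3 and 17.1, 14.4 and 43.1 at day 7. These 4 were the members separated downward (13.8%, against 7.69% of all genes). The median of the list was -0.37 without SCI day 3 replicate 3 and -1.56 without SCI day 7 replicate 3. Emp1 measured 399, 124 and 424 CPM at day 3 and 30.2, 127 and 111 at day 7, Timp1, an inhibitor of metalloproteinases, 227, 84.8 and 428 CPM at day 3 and 69.6, 95.2 and 155 at day 7 and the filament protein Vim 2956, 1413 and 4127 CPM at day 3 and 796, 1747 and 1845 at day 7. In these 3 genes the day 7 range reached into the day 3 range at day 3 replicate 2.

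Gfap went the other way. It measured 2328, 1004 and 2346 CPM in sham, 4720, 3143 and 1305 at day 3 and 7564, 8365 and 7028 at day 7, so that every day 7 library was above every day 3 and sham library, while day 3 replicate 3 lay within the sham range. The log2 fold change between the days was 1.32 ± 0.57 (unadjusted p = 0.0423; edgeR adjusted p = 0.332). It was the 1 separated reactive astrocyte gene that was higher at day 7 (3.45% of the list, against 6.08% of all genes), and its log2 fold change from sham was 0.69 at day 3 (edgeR adjusted p = 0.398) and 2.02 at day 7 (0.309).

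Genes of resting, or homeostatic, astrocytes were higher at day 7 than at day 3. All 20 members had a higher mean at day 7 than at day 3, and 13 were separated (65% of the list, against 6.08% of all genes), and the median difference was 1.30 log2 units. The median difference from sham was -1.42 at day 3 and -0.21 at day 7. Aldh1l1 (ENSRNOG00000047023, chromosome 4), a folate enzyme used as a general astrocyte marker, measured 56.9, 43.1 and 56.9 CPM in sham, 15.8, 15.96 and 11.5 at day 3 and 33.5, 35.2 and 27.6 at day 7. All 3 day 3 libraries were alike, and the day 7 libraries lay between them and sham (log2 fold change between the days 1.15 ± 0.19, SE). Gja1 (ENSRNOG00000000805, chromosome 20), the astrocyte gap junction connexin, measured 369, 287 and 362 CPM in sham, 145, 206 and 108 at day 3 and 580.2, 425 and 353 at day 7. It overlapped sham at day 7, with its highest value above it (1.57 ± 0.27). The water channel Aqp4 measured 1672, 1068 and 1701 CPM in sham, 362, 819.7 and 247 at day 3 and 1383, 1568 and 950 at day 7, and the second connexin, Gjb6, 91.3, 49.01 and 86.3 CPM in sham, 5.52, 25.7 and 7.18 at day 3 and 64.8, 39.9 and 28 at day 7. Both overlapped sham at day 7.

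Day 3 replicate 2 held more of these transcripts than the other day 3 libraries. Relative to sham, the mean log2 level of the list was -1.83, -0.60 and -2.54 in day 3 replicates 1, 2 and 3 and at 0.11, -0.24 and -0.34 at day 7. Without replicate 2, 16 of the 20 rose (edgeR), against 11.4% of all genes, and the median was 1.80. Slc1a3 and Mlc1 overlapped sham at day 3 and were above it at day 7. Slc1a3, a glutamate transporter, measured 199, 168 and 227 CPM in sham, 182, 186 and 147 at day 3 and 262, 256 and 254 at day 7, and Mlc1, a membrane protein of astrocyte endfeet, 324, 248 and 367 CPM in sham, 195, 296 and 118 at day 3 and 586, 476 and 426 at day 7. Aldh1l1 and S100b were the 2 separated members that stayed below sham at day 7. Glul, the glutamine synthetase, overlapped between the days, with 3261, 1609 and 1603 CPM at day 3 and 2039, 2342 and 2326 at day 7.

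**Figure D3:**
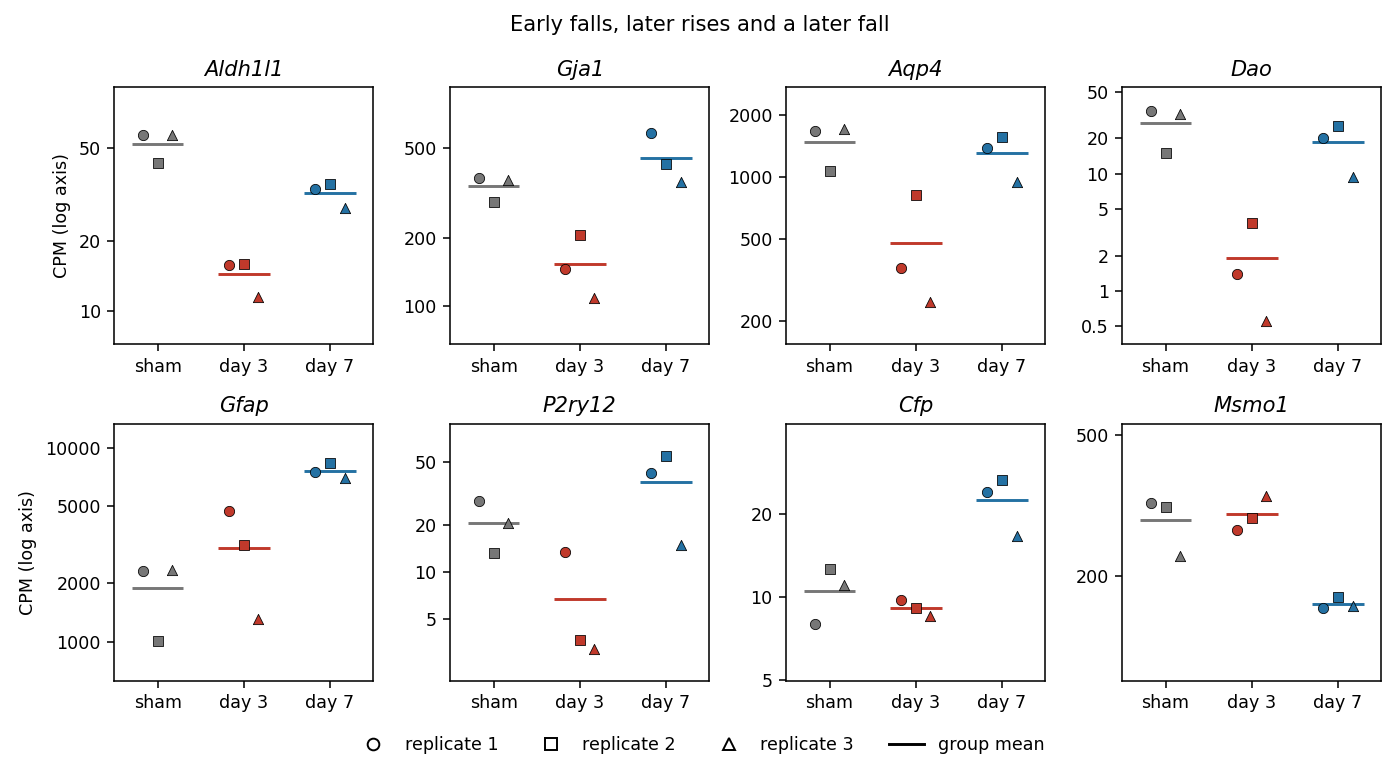
CPM (log axis) of 8 genes in the sham, day 3 and day 7 libraries; symbols mark replicates and lines the group means. Aldh1l1, Gja1, Aqp4 and Dao were lowest at day 3, Gfap and Cfp were highest at day 7, P2ry12 was lower at day 3 than at day 7, and Msmo1 was lowest at day 7.

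Several enzymes named for their small p or chosen after their values were seen were also higher at day 7. Dao, the D-amino acid oxidase of astrocytes, measured 34.2, 14.9 and 32.6 CPM in sham, 1.402, 3.79 and 0.5598 at day 3 and 20.4, 25.8 and 9.34 at day 7 (log2 fold change 3.27 ± 0.66). Its day 3 replicate 3 was below 1 CPM and day 7 replicate 3 was the lowest of its day. Ak4, a mitochondrial adenylate kinase, measured 27.1, 33.3 and 40.2 CPM in sham, 16, 23.2 and 21.5 at day 3 and 48.2, 38.7 and 40.2 at day 7, and Prdx6, an antioxidant peroxiredoxin, 167, 167 and 181 CPM in sham, 95.6, 129 and 102 at day 3 and 206, 170.1 and 167 at day 7. Ca12, a carbonic anhydrase, measured 17.2, 12.8 and 19.3 CPM in sham, 1.804, 4.79 and 2.74 at day 3 and 30.2, 11.5 and 9.28 at day 7. Gys1, the glycogen synthase, measured 43.3, 34.3 and 45.5 CPM in sham, 20.04, 37.5 and 22.7 at day 3 and 56.1, 46.96 and 60.5 at day 7. Gys1 overlapped sham at day 3 and was above every sham library at day 7. Kcne5, a potassium channel subunit, measured 4.88, 2.92 and 11.5 CPM in sham, 0.853, 1.79 and 0.728 at day 3 and 6.73, 9.43 and 4.15 at day 7. Genes chosen after their values were seen add Cbs, which forms cystathionine, with 36.4, 26.9 and 26.9 CPM in sham, 5.704, 6.78 and 5.56 at day 3 and 24.1, 15.03 and 14.1 at day 7, Fah, of tyrosine breakdown, with 23.3, 21.3 and 15.4 CPM at day 3 and 54.9, 47.8 and 39.02 at day 7, and Pgm1, of glycogen use, with 40.5, 64.7 and 39.1 CPM at day 3 and 90.03, 87.7 and 78.4 at day 7. The proteoglycan Bcan, of the perineuronal matrix, measured 447, 227 and 418 CPM in sham, 38.2, 161 and 28.7 at day 3 and 282, 326 and 182 at day 7.

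In the list of hypoxia and glycolysis genes 6 of 24 were separated, all higher at day 7 (25% of the list, against 6.08% of all genes; median 0.32). Pfkp, a phosphofructokinase, measured 347, 256 and 368 CPM in sham, 111, 244 and 77.9 at day 3 and 432, 270.4 and 294 at day 7 and Gapdh 1050, 1178 and 1283 CPM in sham, 942, 1026 and 965 at day 3 and 1533, 1264 and 1256 at day 7. Egln3, a prolyl hydroxylase that marks hypoxia factors, measured 42.9, 26.9 and 34.03 CPM in sham, 13.9, 23.8 and 19.97 at day 3 and 32.5, 29.1 and 29.9 at day 7. Nuclear genes of oxidative phosphorylation were higher in 21 of 22, 6 of them separated (27.3%; median 0.33). Cox6c, a cytochrome oxidase subunit, measured 26.7, 24.6 and 28.6 CPM in sham, 20.7, 26.7 and 19.01 at day 3 and 32.8, 31.6 and 33.8 at day 7, and Sdhb, of complex II, 93.4, 98.1 and 110.2 CPM in sham, 74.2, 91.96 and 63.3 at day 3 and 104, 102 and 105 at day 7. All 13 mitochondrially encoded genes had a higher mean at day 7 (median 0.52), but only Mt-nd5 was separated, with 2328, 4438 and 2814 CPM at day 3 and 5835, 4762 and 4521 at day 7. With day 3 replicate 2 left out all 13 rose (edgeR, median 0.93), and 9 of the 22 nuclear genes did, against 11.4% of all genes. That library was singled out partly for its share of mitochondrial counts, so these calls are partly built in.

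Neuronal transcripts were higher at day 7 in the mean, and this rested on day 3 replicates 1 and 3. Of 23 synaptic vesicle genes 22 had a higher mean (median 0.96) and 1 was separated (4.35%, against 6.08% of all genes). Of 26 genes of inhibitory transmission all 26 were higher (median 0.93) with 2 separated (7.69%). Of 22 glutamate receptors 21 were higher (median 1.07) with 3 separated (13.6%). For the 14 genes of cholinergic motor neurons the median was 0.93, with 0 separated. The neuronal chloride extruder Slc12a5 measured 516, 457 and 609 CPM in sham, 31.99, 383 and 31.5 at day 3 and 435, 247 and 357 at day 7. Vamp1, a synaptobrevin of fast synapses, measured 1260, 1031 and 1392 CPM in sham, 61.7, 944 and 93.3 at day 3 and 1270, 670.3 and 902 at day 7. In both genes day 3 replicate 2 lay within the day 7 range, and the other day 3 libraries were far below it. Relative to sham, the mean log2 level of the synaptic list was -2.61, -0.13 and -3.05 in day 3 replicates 1, 2 and 3 and at -0.15, -0.85 and -0.67 at day 7, and the motor neuron list at -2.90, 0.47 and -3.03 and 0.30, -0.19 and -0.0837. Without replicate 2, 18 of the 23 synaptic, 17 of the 26 inhibitory, 16 of the 22 glutamate receptor and 10 of the 14 motor neuron genes rose (edgeR; 11.4% of all genes did), with medians of 2.42, 2.45, 2.43 and 3.31. The share of mitochondrial counts was low in those same libraries, and sensory ganglion markers were high in replicate 2, with a summed level of 156 CPM against 10.04 and 17.3 CPM in replicates 1 and 3. The part of either in the difference was not tested. Day 3 replicate 2 was singled out partly for its neuronal transcripts, so the larger rises without it are partly built in.

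The separated members of the synaptic, inhibitory and glutamate receptor lists were lower than sham at day 3 in all 3 libraries, among them Stx1a, Slc6a9, Gria3, Grin2c and Grik4. Slc6a9 is also made by astrocytes. The glycine transporter Slc6a9 measured 458, 219 and 418 CPM in sham, 123, 169.6 and 36.3 at day 3 and 318, 310.4 and 192 at day 7. The kainate receptor subunit Grik4 measured 71.6, 43.4 and 65.2 CPM in sham, 20.1, 30.9 and 5.84 at day 3 and 53.1, 57.6 and 41.1 at day 7, and the NMDA receptor subunit Grin2c 92.95, 44.3 and 77.1 CPM in sham, 14.6, 36.3 and 3.46 at day 3 and 89.5, 70.7 and 48.3 at day 7. These 5 overlapped sham at day 7. Of 25 ion channels of neurons Hcn2, a pacemaker channel, was the 1 that separated, with 74.2, 225 and 43.3 CPM at day 3 and 368, 264 and 227 at day 7, and of 16 neurofilament and microtubule genes 0 did (medians 0.99 and 1.08). Without day 3 replicate 2 the medians were 1.95 and 2.67, and 17 of the 25 and 14 of the 16 rose (edgeR, against 11.4% of all genes). Here too the larger rises are partly built in. Mapt, the microtubule protein tau, measured 111, 275 and 76.8 CPM at day 3 and 380, 271 and 254 at day 7.

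**Figure D4:**
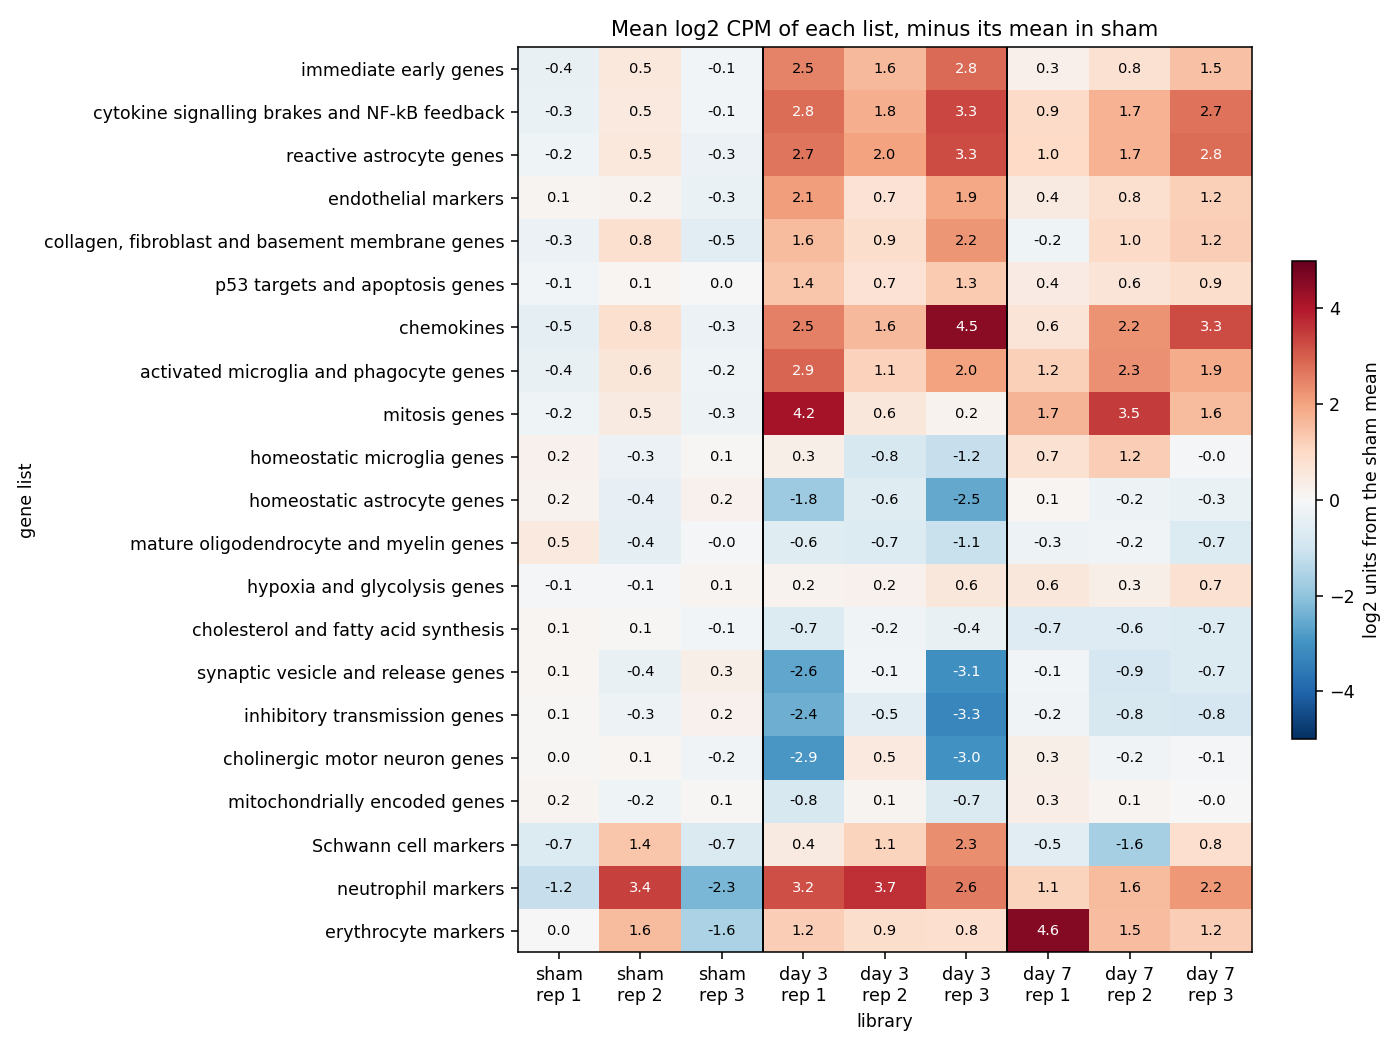
Mean log2 CPM of 21 gene lists (rows) minus their mean in sham, for each of the 9 sham, day 3 and day 7 libraries (columns); red is above and blue below sham. Synaptic and motor neuron lists were far below sham in day 3 replicates 1 and 3 only, resting astrocyte genes were below the sham mean in all 3 day 3 libraries, least so in replicate 2, and the mitosis list was high in day 3 replicate 1 and day 7 replicate 2.

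Resting microglia genes had a higher median at day 7 than at day 3. The median of activation genes was lower, and turned with the library left out. Of 13 resting microglia genes 12 had a higher mean at day 7 (median 0.93). Of the 13, 3 were separated upward (23.1%, against 6.08% of all genes). P2ry12, the ADP receptor that guides microglial processes, measured 28.2, 13.1 and 20.6 CPM in sham, 13.3, 3.66 and 3.22 at day 3 and 42.9, 55.3 and 14.8 at day 7, and its neighbour P2ry13 8.78, 3.904 and 7.16 CPM in sham, 4.28, 1.74 and 0.336 at day 3 and 13.2, 17.1 and 8.67 at day 7. Both genes overlapped sham on each day. The median was -0.0349 without day 7 replicates 1 and 2 and 1.91 without SCI day 3 replicate 1. Csf1r, the survival receptor of microglia, measured 115, 73.3 and 96.9 CPM in sham, 301, 80.9 and 91.5 at day 3 and 335, 479 and 228 at day 7. It was above sham in every day 7 library, but day 3 replicate 1 was inside the day 7 range. Siglec5, an inhibitory receptor of myeloid cells, measured 6.59, 5.39 and 4.45 CPM in sham, 1.32, 1.75 and 1.48 at day 3 and 13, 14.99 and 3.404 at day 7 and Asb2, a ubiquitin ligase subunit, 4.195, 3.56 and 5.06 CPM in sham, 1.67, 1.31 and 1.51 at day 3 and 8.33, 12.1 and 2.84 at day 7. Both were below sham in every day 3 library, and in both day 7 replicate 3 was the lowest of its day. Klra2, a lectin-like receptor, measured 2.3, 3.23 and 2.83 CPM in sham, 1.75, 2.395 and 2.04 at day 3 and 6.85, 8.13 and 3.31 at day 7.

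Activated microglia and phagocyte genes stood above sham on both days. Between the days their median was -0.40. It was 0.34 without SCI day 3 replicate 1 and -0.79 without SCI day 3 replicate 2. Their median difference from sham was 2.20 at day 3 and 1.90 at day 7. Of the 29, 1 was separated, downward (3.45%, against 7.69% of all genes). That gene, Cst7, a protease inhibitor of activated microglia, measured 0.0486, 0.323 and 0.125 CPM in sham, 1.91, 1.28 and 0.952 at day 3 and 0.138, 0.4495 and 0.198 at day 7. Cd63, a lysosomal tetraspanin, measured 642, 206 and 459 CPM at day 3 and 137, 250 and 269.5 at day 7, and Itgax, an integrin of activated microglia, 31.9, 6.58 and 29.4 CPM at day 3 and 3.19, 5.79 and 9.99 at day 7. Cd68, a lysosomal protein of phagocytes, measured 43.02, 7.52 and 12.8 CPM at day 3 and 9.17, 48.1 and 14.6 at day 7 and Aif1 21.4, 8.31 and 9.45 CPM at day 3 and 19.4, 37.9 and 23.5 at day 7. The sign of the difference of Cd68 (0.18 ± 0.98) turned with the library left out. Cathepsin and lysosomal genes had medians of 0.64 and 0.80 from sham, monocyte and border macrophage markers 2.03 and 1.89. The heme-degrading enzyme Hmox1 measured 204, 44.2 and 224 CPM at day 3 and 41.5, 222 and 169 at day 7, with a difference (-0.12 ± 0.69) smaller than its error.

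Complement and antigen presentation genes mostly overlapped between the days. The median between the days was -0.03901 for 18 complement genes, -0.20 for 17 genes of MHC class I presentation, 0.19 for 9 MHC class II genes and -0.43 for 28 interferon response genes, the last turning to 0.25 without SCI day 3 replicate 3. Cfp, or properdin, which stabilises the alternative pathway convertase, overlapped sham at day 3 and was above it at day 7, with 7.97, 12.6 and 11.1 CPM in sham, 9.74, 9.13 and 8.56 at day 3 and 24.03, 26.5 and 16.6 at day 7. Cd55, which dissolves that convertase, went the other way, with 8.44, 16.3 and 7.01 CPM in sham, 24.6, 27.5 and 93.5 at day 3 and 10.5, 12.1 and 17.9 at day 7. C3 measured 45.8, 23.6 and 82.5 CPM at day 3 and 70.4, 111 and 95.2 at day 7 and Cd74, the MHC class II chaperone, 29.01, 25.6 and 48.9 CPM at day 3 and 28.9, 50.95 and 77.9 at day 7. Both overlapped between the days. Zbp1, a sensor of nucleic acids, was the 1 separated interferon gene, with 0.389, 0.753 and 0.297 CPM in sham, 0.695, 0.4401 and 1.15 at day 3 and 1.31, 2.09 and 1.86 at day 7.

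Neutrophil markers were lower at day 7 in 11 of 12 members, 7 of them separated (58.3%, against 7.69% of all genes), with a median of -1.42. Only 1 of the 12 was lower at an unadjusted p under 0.05 (edgeR), against 9.48% of all genes. Without SCI day 3 replicate 2, 0 of the 12 fell (edgeR), against 7.49% of all genes. Mpo, the granule peroxidase, measured 1.73, 9.298 and 1.75 CPM in sham, 4.997, 35.2 and 2.799 at day 3 and 0.9101, 0.648 and 1.34 at day 7. S100a9, the most used calprotectin chain, measured 0.308, 24.4 and 0 CPM in sham, 15.1, 16 and 13.4 at day 3 and 4.79, 3.77 and 6.61 at day 7, and S100a8 0, 5.53 and 0 CPM in sham, 3.63, 4.74 and 3.303 at day 3 and 1.103, 1.23 and 1.81 at day 7. Sham replicate 2 was as high as day 3 in S100a9 and S100a8 and the other sham libraries were at or near 0. Levels were low: the summed CPM of the list was 119.6, 157 and 104 at day 3, 44.7, 80.8 and 122 at day 7 and 9.57, 113 and 6.999 in sham. Csf3r, the G-CSF receptor, which microglia also make, was the 1 member with a higher mean at day 7, with 21.2, 6.59 and 6.42 CPM at day 3 and 15.7, 31.1 and 18.2 at day 7.

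Genes of dividing cells differed more between libraries than between days. Of 30 mitosis genes 0 were separated, with a median of -0.27, which turned to 2.203 without SCI day 3 replicate 1. Mki67, a protein of cycling cells, measured 6.38, 17.8 and 7.11 CPM in sham, 214, 18.9 and 12.5 at day 3 and 38.4, 106 and 41.5 at day 7. Day 3 replicate 1 and day 7 replicate 2 were the high libraries. The difference of -0.40 ± 0.94 became 1.98 without SCI day 3 replicate 1. Of 31 DNA replication genes 29 had a lower mean at day 7 (median -0.52, and 0.36 without SCI day 3 replicate 1), and Cdc45, of the replication helicase, was separated, with 88.5, 125 and 90.9 CPM in sham, 135, 165 and 158 at day 3 and 130.1, 113 and 98.1 at day 7. Mcm5, another part of that helicase, measured 88.1, 12.3 and 11.8 CPM at day 3 and 8.94, 34.5 and 16.9 at day 7.

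Matrix, protease and clotting genes were lower in the mean with few separated members. Of 28 collagen, fibroblast and basement membrane genes 27 had a lower mean at day 7 (median -0.80). Of the 28, 2 were separated downward (7.14%, against 7.69% of all genes). Col4a1, a basement membrane collagen, measured 207, 707 and 169 CPM in sham, 1488, 731 and 2020 at day 3 and 248, 282 and 722 at day 7, and Nid1, which links laminin to it, 167, 430.1 and 152 CPM in sham, 314, 286 and 605 at day 3 and 108, 155 and 261 at day 7. Sham replicate 2 was high in both. Of 19 metalloproteinases and inhibitors 16 were lower (median -0.93). Mmp3, or stromelysin, measured 0.308, 0.461 and 0.266 CPM in sham, 3.88, 7.41 and 7.78 at day 3 and 1.02, 1.18 and 1.55 at day 7, and Mmp8 was separated too. Of 21 plasminogen, coagulation and kinin genes 16 were lower (median -0.96). Anxa2, the plasminogen receptor that pairs with S100a10, measured 62.9, 172 and 60.7 CPM in sham, 394, 221 and 510.3 at day 3 and 115, 157 and 204 at day 7, and the protease inhibitor Tfpi2 10.5, 1.96 and 67.4 CPM at day 3 and 1.32, 2.62 and 5.61 at day 7. F10, the clotting factor X, was the separated member that was higher at day 7, with 0.1296, 0.615 and 0.203 CPM in sham, 0.938, 0.401 and 0.938 at day 3 and 2.896, 2.67 and 2.204 at day 7.

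Markers of nerve root moved in the same libraries. All 11 Schwann cell markers had a lower mean at day 7 (median -1.71), with 1 separated. Their summed CPM was 6845, 48590 and 8040 in sham, 14580, 32020 and 62120 at day 3 and 7498, 2600 and 20960 at day 7, and none of them was at 0 in any library of these groups. Sham replicate 2 and day 3 replicate 3, the highest of their groups, were also the highest of their groups in Col4a1, Cntf and Il33. The part of nerve root in the matrix and cytokine differences was not tested.

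Several genes of cholesterol synthesis lay below sham at day 7 and not at day 3. Of 30 genes of cholesterol and fatty acid synthesis 24 had a lower mean at day 7, 10 were separated downward (33.3%, against 7.69% of all genes) and 0 upward. In 8 of the 10 the day 3 libraries overlapped sham and the day 7 libraries lay below it, among them Idi1, Lss, Msmo1, Hsd17b7, Acaca and Elovl6. That pattern held 0.812% of all genes. The differences were small: the median of the list was -0.24 between the days, -0.36 from sham at day 3 and -0.66 at day 7. Msmo1 (ENSRNOG00000032297, chromosome 16), a sterol demethylase, measured 321, 314 and 228 CPM in sham, 271, 293 and 337 at day 3 and 162, 175 and 165 at day 7. The 3 day 7 libraries were close together (log2 fold change -0.84 ± 0.31). Idi1, which isomerises isopentenyl diphosphate, measured 119.5, 143 and 86.8 CPM in sham, 85.5, 129 and 131 at day 3 and 64.8, 84.1 and 73.4 at day 7. Elovl6, which elongates fatty acids, measured 43.6, 56.5 and 32.9 CPM in sham, 34.3, 40.6 and 45.9 at day 3 and 22.7, 17.2 and 21.8 at day 7. Hmgcs1, an early enzyme of the pathway, overlapped between the days and was below sham on both, with 1216, 1297 and 901 CPM in sham, 479.5, 891 and 831 at day 3 and 538, 636 and 488 at day 7. Leaving out day 3 replicate 2 gave a median of -0.18 and 0 of the 30 passed (edgeR).

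Of 13 genes of cholesterol efflux and lipid storage 2 were separated downward (15.4%, against 7.69% of all genes) and 1 upward (7.69%, against 6.08%). The median was -0.24. Ch25h, which makes an oxysterol, measured 2.35, 3.83 and 2.797 CPM in sham, 51.1, 25.1 and 27.8 at day 3 and 5.12, 12.96 and 19.4 at day 7 and stayed above sham at day 7. Nr1h3, the oxysterol receptor LXR alpha, measured 6.66, 12.9 and 7.34 CPM in sham, 17.7, 15.5 and 36.5 at day 3 and 7.68, 9.61 and 14.99 at day 7, and Abcg1, a sterol exporter, was the 1 separated upward. The promoters of the synthesis genes were searched in the same RefSeq windows, found for 19 of the 30. CCAAT, the box of NF-Y, a partner of the sterol factors SREBP, was present on either strand in 16 of the 19 (84.2%), against 37.7% of all promoters. The sterol element TCACNCCAC was in 0 of the 19, against 1.13%. Msmo1 and Idi1 are printed because both lay below sham at day 7 and held 3 and 2 such boxes (in capitals, as CCAAT or its complement ATTGG; Msmo1 chr16:29746863-29747162, plus strand; Idi1 chr17:66547475-66547774, minus strand; both GRCr8).
Msmo1: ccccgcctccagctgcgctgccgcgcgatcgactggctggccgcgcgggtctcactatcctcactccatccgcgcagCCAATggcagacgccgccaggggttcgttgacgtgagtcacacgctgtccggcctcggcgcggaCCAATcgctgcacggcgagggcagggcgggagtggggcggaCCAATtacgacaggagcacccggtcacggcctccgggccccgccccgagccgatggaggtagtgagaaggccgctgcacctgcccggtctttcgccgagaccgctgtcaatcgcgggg
Idi1: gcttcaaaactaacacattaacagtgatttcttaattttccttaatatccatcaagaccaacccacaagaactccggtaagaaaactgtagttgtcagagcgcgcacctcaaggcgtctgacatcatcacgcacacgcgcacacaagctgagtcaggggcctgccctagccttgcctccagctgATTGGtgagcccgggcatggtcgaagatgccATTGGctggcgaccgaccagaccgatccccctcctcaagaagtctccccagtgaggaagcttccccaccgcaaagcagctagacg
The nearest box of Idi1 started 35 bases before the start and that of Msmo1 68 bases before it.

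Some myelin genes were higher at day 7 than at day 3. Of 19 genes of mature oligodendrocytes 14 had a higher mean at day 7 (median 0.54) and 4 were separated, all upward (21.05%, against 6.08% of all genes). The median was 0.0519 without SCI day 7 replicates 1 and 2 and 0.86 without SCI day 3 replicate 1. Ermn, of the oligodendrocyte skeleton, measured 816, 296 and 592 CPM in sham, 172, 219.9 and 84.6 at day 3 and 497, 500.4 and 240.1 at day 7. Aspa, which frees acetate for myelin lipids, measured 112, 97.05 and 87.3 CPM in sham, 60.7, 63.4 and 63.8 at day 3 and 83.05, 102 and 64.9 at day 7. Both overlapped sham at day 7. Mbp, myelin basic protein, did not follow, with 19200, 18380 and 30620 CPM at day 3 and 21000, 22660 and 17450 at day 7. Of 15 progenitor genes C1ql1 was separated, with 16.8, 7.29 and 16.8 CPM in sham, 15.1, 10.7 and 2.07 at day 3 and 24.9, 27.8 and 15.8 at day 7. Gpr17, a receptor of oligodendrocytes in transition, measured 169, 56.8 and 129.5 CPM in sham, 13.8, 43.5 and 9.66 at day 3 and 61.9, 88.9 and 25.4 at day 7.

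Few genes were above sham at day 3 and higher still at day 7. The following were chosen after their values were seen. Tmem176a and Tmem176b, a pair of membrane proteins of antigen-presenting cells, were above sham at day 3 and higher still at day 7. Tmem176a measured 21.8, 25.2 and 28.6 CPM in sham, 56.9, 47.3 and 51.5 at day 3 and 90.2, 132 and 71.1 at day 7 and Tmem176b 47.1, 52.7 and 40.2 CPM in sham, 93.4, 78.6 and 75.5 at day 3 and 139, 219.9 and 118 at day 7. Scara3, of the scavenger receptor family, measured 17.9, 11.7 and 12.5 CPM in sham, 21.6, 24.3 and 19.1 at day 3 and 33.6, 49.6 and 43.2 at day 7, and Sulf1, which trims heparan sulfate, 19.5, 20.1 and 24.6 CPM in sham, 34.6, 31.2 and 42.8 at day 3 and 44.2, 47.8 and 54.98 at day 7. Naprt, which makes NAD from nicotinic acid, measured 12.2, 14.1 and 12.8 CPM in sham, 19.2, 15.3 and 20.3 at day 3 and 23.6, 30.2 and 28.5 at day 7. The log2 fold changes of these 5 between the days ran from 0.44 for Sulf1 to 0.96 for Scara3.

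More genes overlapped sham at day 3 and were above it at day 7. Fmod, a small proteoglycan of collagen matrix, measured 8.93, 7.02 and 6.64 CPM in sham, 5.46, 6.81 and 1.74 at day 3 and 36.9, 44.5 and 13.3 at day 7 (log2 fold change 2.76 ± 0.57). Igfbp2, a binding protein of insulin-like growth factors that astrocytes secrete, measured 35.98, 28.5 and 48.2 CPM in sham, 41.9, 65.5 and 31.4 at day 3 and 96.5, 153 and 93.7 at day 7. Adgre1, the receptor F4/80 of macrophages and microglia, measured 7.89, 11.8 and 5.61 CPM in sham, 9.53, 7.04 and 15.9 at day 3 and 41.4, 56.7 and 29.2 at day 7. The metallothionein Mt3, of neurons and astrocytes, measured 24.4, 29.97 and 24.1 CPM in sham, 11.6, 37.5 and 21.6 at day 3 and 44.4, 40.8 and 42.6 at day 7. Igfbp2, Adgre1 and Fam166a were likewise chosen after their values were seen. Fam166a was near 0 in sham and at day 3 and measured 5.49, 5.09 and 4.44 CPM at day 7.

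Lclat1 and its like crossed the sham level. Lclat1, an acyltransferase of cardiolipin and phosphatidylinositol, measured 16.98, 17.2 and 16.2 CPM in sham, 25.3, 20.98 and 27.1 at day 3 and 5.46, 5.34 and 5.47 at day 7. The day 3 libraries were above sham and the day 7 libraries, close together, far below it (log2 fold change -2.17 ± 0.46). At day 14 the libraries had 21.9, 6.33 and 5.06 CPM, so that replicate 1 alone was at the day 3 level. Rgma and Trpm2 were chosen after their values were seen. Rgma, a repulsive axon guidance protein, went from below sham to above it, with 63.2, 58.8 and 64.05 CPM in sham, 48.8, 53.9 and 40.8 at day 3 and 86.5, 67.98 and 77.2 at day 7. So did the calcium channel Trpm2, with 35.4, 40.05 and 44.8 CPM in sham, 22.1, 32.1 and 6.79 at day 3 and 63.3, 71.5 and 56.8 at day 7.

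**Figure D5:**
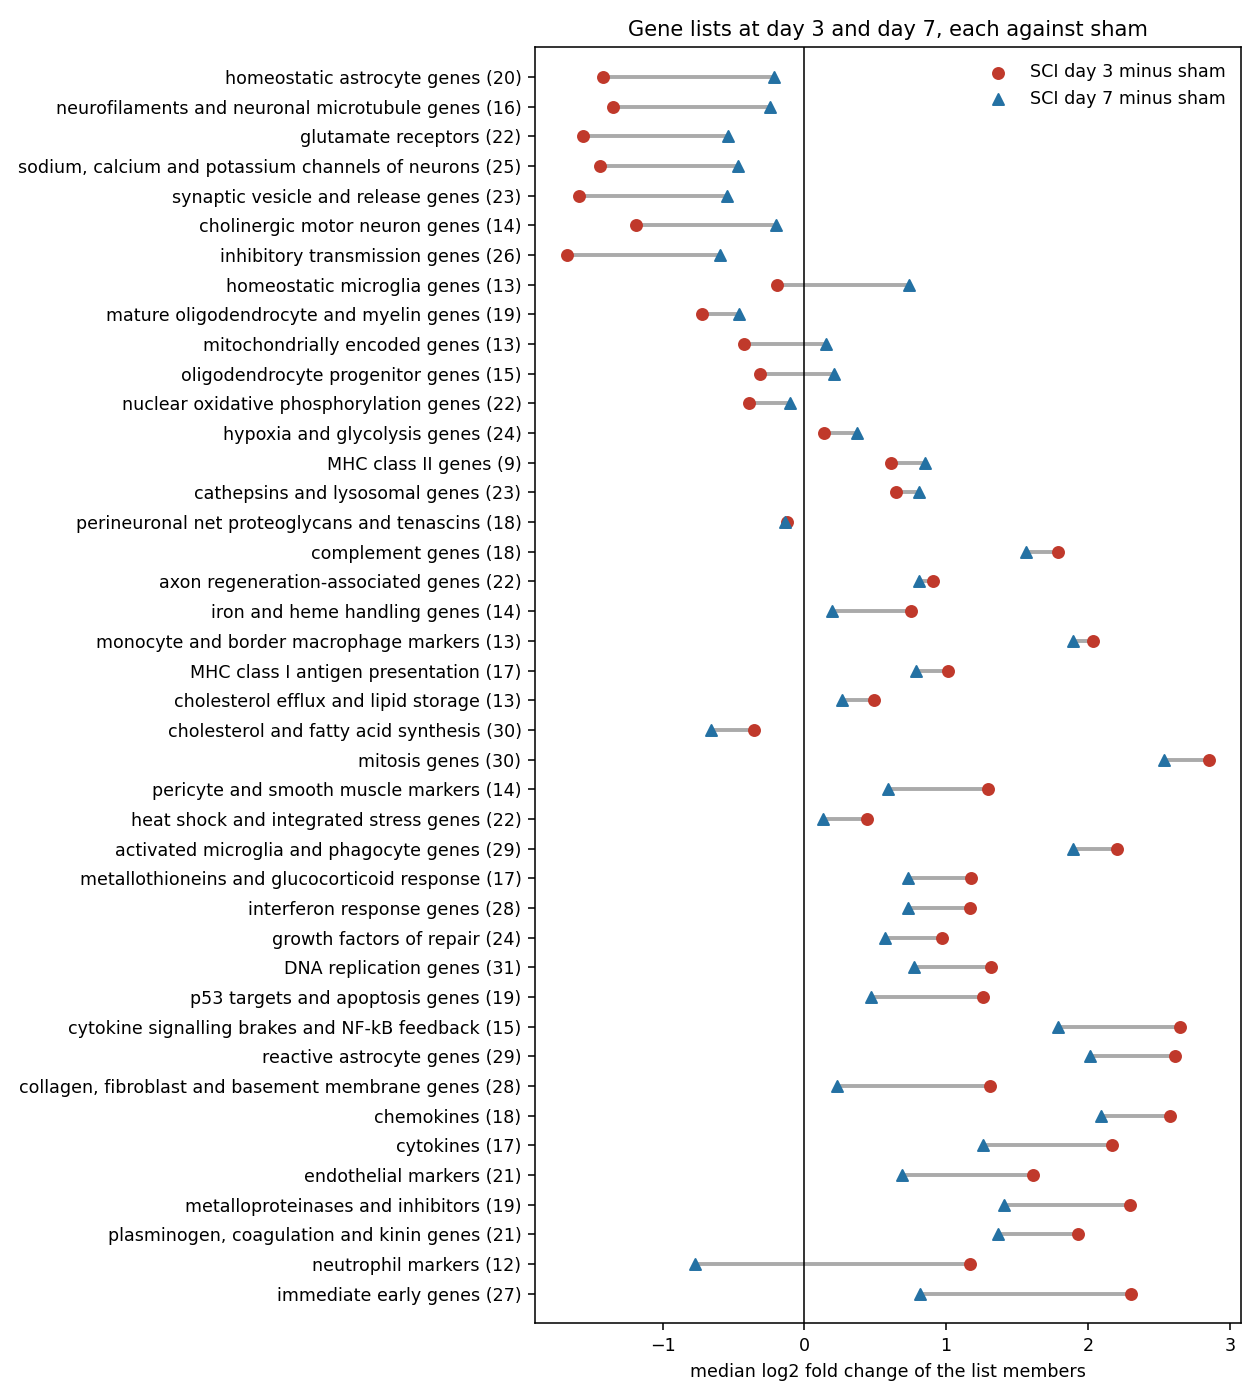
Median log2 fold change of the members of 42 gene lists (rows; number tested in brackets) at day 3 minus sham (circles) and day 7 minus sham (triangles), sorted by the difference between the days. Immediate early genes went from 2.30 to 0.81 and resting astrocyte genes from -1.42 to -0.21.

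The other lists had few separated members. Over all genes tested, 7.69% were separated downward and 6.08% upward. Of 13 monocyte and border macrophage markers 1 was separated, Ly6c, which was lower. Of 17 metallothioneins and glucocorticoid response genes Sgk1 and Per1 were separated downward and Mt3 upward (median -0.40). Of 14 iron and heme genes Hmox2 and Blvrb, of heme breakdown, were separated upward (median -0.12). Of 22 axon regeneration-associated genes Klf7 was separated downward and Ecel1 upward (median -0.10). By day 3, 7 of the 22 had risen (edgeR), against 5.5% of all genes. Of 18 perineuronal net genes Chst3 was separated downward and Bcan upward (median -0.0105), and of 19 circadian clock genes Clock and Per1 downward and Per2 upward.

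Markers of other tissues marked single libraries. Sensory ganglion markers summed to 10.04, 156 and 17.3 CPM in day 3 replicates 1, 2 and 3 and to 22.3, 17.9 and 20.1 at day 7, so their median of -1.65 rested on replicate 2 and was 0.58 without it. Skeletal muscle markers summed to 23.4, 223 and 16.6 CPM at day 7 and to 11.1, 28.8 and 42.2 at day 3, and were high in day 7 replicate 2. Of these, Myh2 was at 0 in day 7 replicates 1 and 3. Erythrocyte markers summed to 15580, 3093 and 2285 CPM at day 7 and 1185, 1089 and 1337 at day 3, highest in day 7 replicate 1. Of these 5 markers 3 were separated upward (60%, against 6.08% of all genes). Meningeal and ependymal markers summed to 253, 481 and 387 and 262, 277 and 390.3 CPM.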

How the data were processed

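RNA had been extracted with an RNeasy kit and made into libraries with a SMARTer mRNA-Seq kit, per the labels' protocols. The authors deposited 1 table of 23526 genes with raw counts per gene, used here, and FPKM values, which the authors scaled by gene length and depth and which were not used. Mouse builds (GRCm38, mm10) are named in the submitters' processing notes, although the gene identifiers are those of rat in Ensembl. The sources used here do not state the aligner, the counting tool or the strand setting, so overlapping and near-identical genes are uncertain. No coordinates are taken from the table.

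Counts were fitted with edgeR 4.0.16 in R 4.3.3 (TMM factors, filterByExpr, quasi-likelihood test, 1 mean per group, all 12 libraries, 8 residual degrees of freedom), which kept 18714 genes. P-values were adjusted by Benjamini and Hochberg over these genes, with a limit of 0.05. The SE of a log2 fold change is its size over the square root of F. The procedure was tested on simulated data. No libraries were duplicates. Alternatives were DESeq2 1.42.0, limma 3.58.1 (voom), other scalings and filters, other sets of libraries, a replicate block and each library left out.

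Named genes are the 12 higher and 12 lower genes with the smallest p among those with at least 5 CPM on the higher day and no overlap, none of them past the limit in edgeR, 4 members of each list by p, and a fixed set of markers. Other genes were chosen after their values were seen. The members and the 49 lists (944 symbols, 58 without a match in the table) were chosen with earlier results of these data known. Some genes that this rule names are not reported here. Promoters are from RefSeq (GRCr8).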

Additional observations from a re-analysis of the deposited data

Results flagged for a closer look

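Of the 21 genes in which the libraries crossed the sham level, 3 were named. In these 3 genes every SCI day 3 library lay on one side of all sham libraries and every SCI day 7 library on the other. The log2 fold change of day 7 over day 3 was -2.17 for Lclat1, 0.69 for Rgma and 1.65 for Trpm2, each with an edgeR adjusted p of 0.323. That the effects at the 2 days differ was not called by this test. DESeq2 called it, with adjusted p of 0.002128, 0.003729 and 0.04423, and Lclat1 also passed in edgeR with sham, day 3 and day 7 libraries only (adjusted p = 0.00708). Without SCI day 3 replicate 2 the adjusted p in edgeR was 0.0148, 0.0121 and 0.0156. These genes are listed because of that order, which by itself separates the days. A small p between the days is therefore partly built in and does not test the crossing. Rgma and Trpm2 were also chosen after their values were seen.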

How the results depend on the processing

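The count of genes that differed between day 7 and day 3 was 0 in the main analysis with edgeR, 2773 at an unadjusted p under 0.05, and 230 in DESeq2 (115 higher, 115 lower). It was 1, lower, in limma voom, in the fit of sham, day 3 and day 7 libraries only, and with the replicate block. Leaving out single libraries gave 0 to 3605 in all, 0 to 2176 higher and 0 to 1429 lower. Without SCI day 3 replicate 2 and SCI day 14 replicates 1 and 2, chosen after seeing the data, it was 3222 (2256 higher, 966 lower). For day 3 against sham (1254) it was 733 with no filter, 5107 in DESeq2, 6232 in voom, 1 with only the compared libraries, 10 with the 9 libraries of these groups, 8 with the replicate block, and 1 to 7087 with single libraries left out. Sets of libraries were also left out after seeing the data, those high in Schwann cell markers (SCI day 3 replicate 3, sham replicate 2), in sensory ganglion markers (SCI day 3 replicate 2, SCI day 14 replicates 1 and 2) and in muscle or erythrocyte markers (SCI day 7 replicates 1 and 2), and gave 3, 6787 and 38. For day 7 against sham (3) the values were 507 in DESeq2, 276 in voom, 89 with only the compared libraries, 1 with the replicate block, 1 to 7 with single libraries left out, and 0, 8 and 0 for those sets. Separated genes, 1439 lower and 1138 higher with all libraries, numbered 1770 to 4558 lower and 1392 to 4569 higher with 1 library of these days left out, where fewer libraries overlap less often. The other causes were not tested. The labels do not say whether the replicate numbers pair the samples. The deviations of same-numbered libraries of day 3 and day 7 had correlations of -0.192, -0.263 and 0.247. With 3 libraries per group these values cannot decide it.

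The 197 genes of the text were chosen partly for small p or after their values were seen in these libraries. A kept direction is therefore partly built in. Of them, 188 kept their direction in all of the 25 settings that tested them. In the 9 others the log2 fold change ran, with single libraries left out, as follows: -1.85 to 0.0537 in Ccl2, -4.71 to 1.64 in Cxcl3, -0.58 to 0.32 in Hmox1, -0.83 to 1.24 in Cd68, -1.03 to 1.98 in Mki67, -1.53 to 0.74 in Mcm5, -1.08 to 0.0944 in Mcm2, -1.65 to 1.85 in Ccna2 and -0.29 to 0.12 in Mbp. Other reversed values were 0.30 for Mki67 and -0.0857 for Cd68 in voom and -0.37 for Cd68 with the replicate block. Without SCI day 3 replicate 3 and sham replicate 2 they were 0.0537 for Ccl2, 1.64 for Cxcl3, 0.22 for Hmox1, -0.0766 for Cd68 and 0.12 for Mbp. Without SCI day 7 replicates 1 and 2 they were 0.10 for Hmox1 and -0.53 for Cd68, and in the set without SCI day 3 replicate 2 and SCI day 14 replicates 1 and 2 -0.18 for Cd68. The list of T, B and NK cell markers had no median under the filter of 1 CPM. Of 49 list medians, 34 kept their sign with each single library left out and 15 turned. Of these, the highest values were 0.0437 for MHC class I presentation, 0.15 for complement, 0.0024 for iron and heme genes, 0.35 for axon regeneration genes and 0.29 for perineuronal net genes. They were 0.45 for chemokines, 0.34 for activated microglia and phagocyte genes and 0.29 for monocyte and border macrophage markers. Lists that turned downward reached -0.15 for cathepsins and lysosomal genes, -0.0356 for circadian clock genes and -1.18 for skeletal muscle markers. The values of dividing cells, interferon response and sensory ganglion markers stand with their results.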
